A study of Mus musculus with 10 samples.

Results

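The collagen genes are those whose symbol is Col, a type number, the letter a and a chain number, with 10 or more counts in at least 5 libraries. All 44 such symbols among the 47729 genes of the table met the count rule. Collagens are extracellular proteins of 3 chains wound into a helix. They are grouped here as 11 fibrillar genes, 9 FACIT genes (collagens that sit on the surface of fibrils), 8 genes of the basement membrane and its zone, and 16 other genes. In a limb bud, loose mesenchyme makes collagens of soft tissue, condensing cartilage makes types II, IX and XI, and ectoderm and vessels lie on basement membranes built on type IV. Chains of a type are made from separate genes and meet in the endoplasmic reticulum, so the balance of their transcripts bears on which trimers can form.

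RNA of forelimb buds of mouse embryos at embryonic day 11.5 to 12 was sequenced, with 5 control and 5 knockout libraries and somite stages from 49 to 51. The knockouts are labelled Prx1Cre_+-Cxxc1fl_fl, that is, they carry Prx1Cre, which recombines floxed DNA in the mesenchyme of the limb bud, with both copies of Cxxc1 floxed. Control 1 is labelled Prx1Cre_+-Cxxc1fl_wt, controls 2 and 4 CreWT-Cxxc1fl_WT, control 3 CreWT-Cxxc1fl_fl and control 5 Prx1Cre?-Cxxc1fl_fl, with a question mark at its Cre. Every group therefore carried floxed alleles, and ectoderm, vessels and blood lie outside the reach of this Cre. Litter A gave controls 1 and 2 and knockouts 1 and 2, and litters B, C and D gave the pairs numbered 3, 4 and 5. CXXC1 binds unmethylated CpG and belongs to complexes that methylate histone H3 at lysine 4. The title of the study names BMP signaling and progenitor differentiation in the limb.

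Total counts ran from 33274855 to 49881126 per library. Cxxc1 itself was at 91.4, 95.4, 105.8, 101.6 and 89.5 CPM (read counts brought to a common scaled library size) in the controls 1 to 5 and at 75.1, 75.8, 76.2, 75.8 and 73.1 CPM in the knockouts 1 to 5, so the groups did not overlap (log2 fold change -0.36, SE 0.05, edgeR adjusted p = 0.000144). All 9 limb mesenchyme markers, Prrx1 and Tbx5 among them, had counts in every library. Their summed level was 1979 to 2129 CPM in the controls and 1074 to 1213 CPM in the knockouts. By edgeR's test at an adjusted p below 0.05, 6 of the 9 fell, 0 rose and 3 did not pass. Of all genes tested, 17.1% fell and 18.1% rose. In such bulk tissue, fewer cells of a type and less RNA per cell cannot be told apart. Xist was high in control 1 (4114 CPM) and knockout 3 (2290 CPM), with 5.48 CPM or less in each other library, so these libraries were left out as an alternative.

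Fibrillar and FACIT collagens were mostly lower in the knockout, and basement membrane collagens mostly were not. By edgeR's quasi-likelihood test, at a Benjamini-Hochberg adjusted p below 0.05, 22 of the 44 genes fell and 9 rose, and 13 were not called. Of all 20562 genes tested, 35.2% passed, 18.1% as higher and 17.1% as lower. Of the 11 fibrillar genes 7 fell and 0 rose, of the 9 FACIT genes 5 fell and 1 rose, of the 8 basement membrane genes 1 fell and 3 rose, and of the 16 others 9 fell and 5 rose. The median log2 fold changes of these classes were -0.81, -1.33, 0.15 and -0.75. The median was -0.68 over the collagens and -0.001 over all genes. A fall of at least 2-fold was called for 14 collagens, against 2.24% of all genes, and a rise of that size for 4, against 4.8%. The groups did not overlap in 24 collagens, against 25.3% of all genes. In 18 every knockout library was below every control (12.4% of all genes), and in 6 every one was above (13% of all genes). Col6a4 and Col10a1 are among these 6, among the 4 that rose at least 2-fold and among the 9 that rose. Both met the count rule mostly through the knockouts. Scaled by library size only, 20 collagens fell and 9 rose, and the share of higher genes among all calls moved from 51.3% to 62.2%. Without litter A, 3 against 3, 19 fell and 4 rose. Without control 1 and knockout 3, 21 fell and 6 rose.

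**Figure D1:**
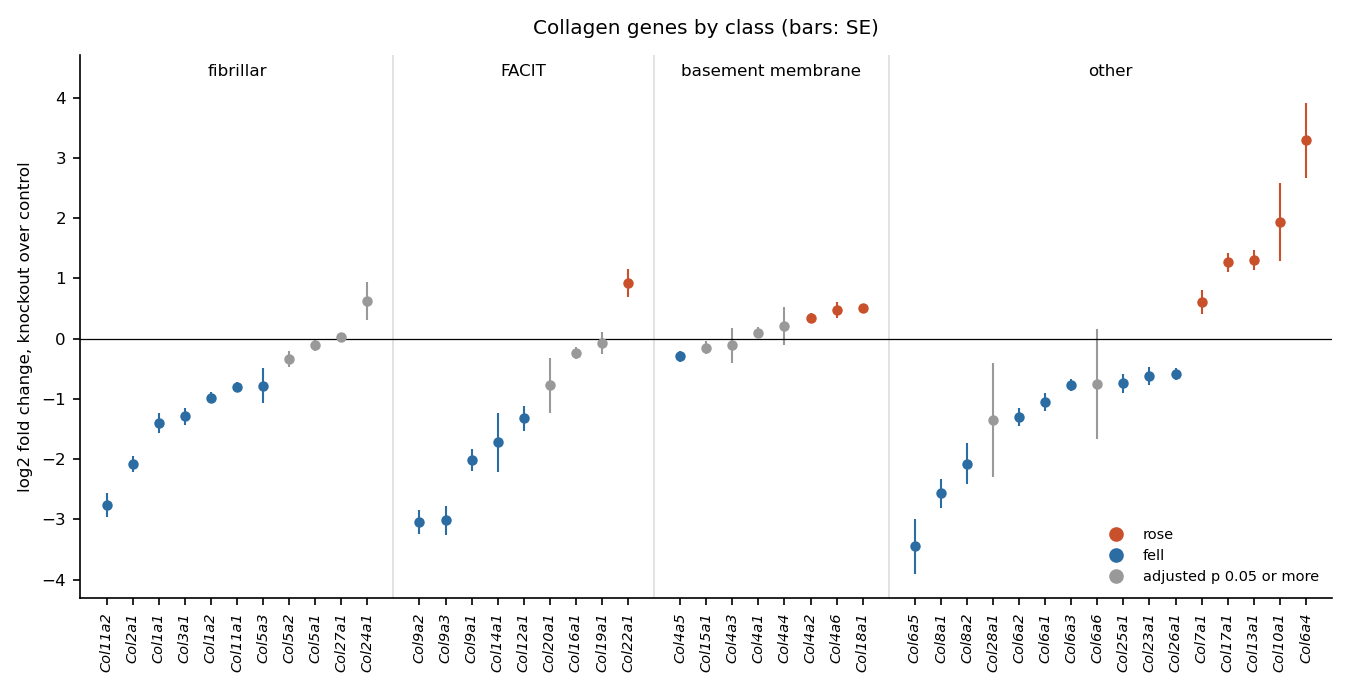
Log2 fold change (knockout over control, vertical axis) of the 44 collagen genes, grouped by class and ordered within it, with bars of 1 SE, blue for genes that fell, orange for those that rose and grey for those not called. Fibrillar and FACIT genes reach down to -2.76 and -3.05, basement membrane genes lie between -0.30 and 0.51, and the other collagens spread from -3.45 to 3.29.

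The promoters of 6 members are printed here as examples of low and high CpG content among collagens that fell and among collagens that rose. Where a gene has several starts the most upstream one is shown. The sequences are RefSeq's (GRCm38.p6), 5′ to 3′ on the strand of the gene, upstream of the start, and leave out bases that GENCODE places inside the gene. Capitals mark each CG, the dinucleotide that CXXC1 binds when it is unmethylated. Methylation was not measured here.
Col3a1, chr1:45311288-45311537, plus strand: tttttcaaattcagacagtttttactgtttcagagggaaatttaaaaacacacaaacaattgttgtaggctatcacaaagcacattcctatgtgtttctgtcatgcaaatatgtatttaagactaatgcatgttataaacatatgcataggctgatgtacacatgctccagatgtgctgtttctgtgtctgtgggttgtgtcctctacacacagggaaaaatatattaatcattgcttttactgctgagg
Col9a1, chr1:24177360-24177609, plus strand: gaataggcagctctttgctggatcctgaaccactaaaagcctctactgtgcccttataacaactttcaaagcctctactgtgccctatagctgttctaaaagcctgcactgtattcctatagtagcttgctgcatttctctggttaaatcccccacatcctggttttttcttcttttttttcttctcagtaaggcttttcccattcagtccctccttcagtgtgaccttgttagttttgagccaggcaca
Col6a5, chr9:105960644-105960893, minus strand: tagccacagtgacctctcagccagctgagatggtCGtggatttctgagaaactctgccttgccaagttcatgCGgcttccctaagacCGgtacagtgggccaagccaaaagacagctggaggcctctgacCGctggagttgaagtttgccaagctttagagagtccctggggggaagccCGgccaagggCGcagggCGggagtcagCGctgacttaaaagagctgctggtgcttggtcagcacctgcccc
Col8a2, chr4:126286544-126286792, plus strand: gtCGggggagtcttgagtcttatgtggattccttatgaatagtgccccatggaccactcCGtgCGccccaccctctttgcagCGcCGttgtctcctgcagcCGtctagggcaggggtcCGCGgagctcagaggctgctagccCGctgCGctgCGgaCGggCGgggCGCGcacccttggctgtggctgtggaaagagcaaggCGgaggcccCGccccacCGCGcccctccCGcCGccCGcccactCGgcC
Col17a1, chr19:47692095-47692292, minus strand: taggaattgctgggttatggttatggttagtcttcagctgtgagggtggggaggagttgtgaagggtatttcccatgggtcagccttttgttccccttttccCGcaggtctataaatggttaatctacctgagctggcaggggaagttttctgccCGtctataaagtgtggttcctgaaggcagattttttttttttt
Col13a1, chr10:61979109-61979358, minus strand: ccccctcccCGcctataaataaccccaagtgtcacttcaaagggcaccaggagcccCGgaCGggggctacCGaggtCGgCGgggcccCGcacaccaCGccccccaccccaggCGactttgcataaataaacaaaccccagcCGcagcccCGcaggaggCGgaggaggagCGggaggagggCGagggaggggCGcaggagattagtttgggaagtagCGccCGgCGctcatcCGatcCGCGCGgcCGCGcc
Col3a1 and Col9a1, which fell, have no CG in these bases, and Col6a5, the gene with the lowest log2 fold change, has 8. Col8a2, which fell, has 23, and Col13a1, which rose, has 24. Col17a1, which rose, has 2.

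Collagen transcripts made up 0.416% of the scaled library in the controls and 0.278% in the knockouts. The summed level of all 44 genes was 3798, 4153, 4535, 3643 and 4681 CPM in the controls 1 to 5, and 2775, 2580, 2859, 2762 and 2910.0 CPM in the knockouts 1 to 5. Every knockout library was below every control. The fibrillar genes were at 2249 ± 271 CPM in the controls and 1105 ± 77.3 CPM in the knockouts (SD, n = 5 each), and the FACIT genes at 413.6 ± 69.8 and 131 ± 14.3 CPM. The basement membrane genes were at 979 ± 124 and 1163 ± 64.1 CPM, and the other genes at 520.1 ± 69.2 and 379 ± 33.6 CPM. These sums are descriptions and were not tested.

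**Figure D2:**
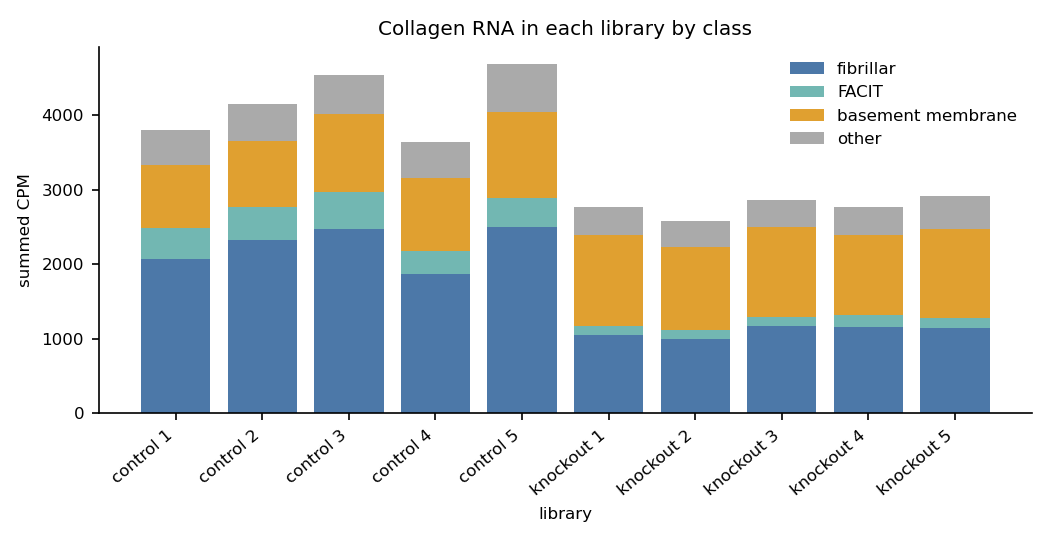
Summed CPM of the collagen genes (vertical axis) in each of the 10 libraries, stacked by class. The fibrillar part lies between 1872 and 2499 CPM in the controls and between 998 and 1174 CPM in the knockouts, while the basement membrane part lies between 846 and 1154 CPM in the controls and between 1079 and 1218 CPM in the knockouts.

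The order of the genes changed with these sums. Per kilobase of exon, the highest levels in the controls were those of Col4a1 (57.3 CPM per kb), Col3a1 (56.1), Col1a2 (51.6), Col2a1 (42.9) and Col4a2 (38.3 CPM per kb). The first 3 differed by less than the SD of Col4a1 over the controls. In knockouts the highest were Col4a1 (61.3 CPM per kb), Col4a2 (48.4) and Col18a1 (45.02), followed by Col1a2 (26.2) and Col3a1 (22.9 CPM per kb). Col2a1 went from rank 4 to rank 10, Col9a1 from 6 to 13 and Col9a2 from 9 to 22. On this scale, basement membrane genes held 27.2% ± 2.78 of collagen transcripts in the controls and 47.7% ± 1.71 in the knockouts (SD, n = 5 each). FACIT genes held 15.3% ± 2.73 and 5.90% ± 0.673.

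Among the fibrillar collagens of soft connective tissue, those of types I and III fell and the main chains of type V did not pass. Col1a1 (chromosome 11, 94936224 to 94953042, GRCm38 as for all gene positions here), which codes for the α1 chain of type I collagen, the main collagen of skin, tendon and bone, was at 133, 151, 188, 109 and 228 CPM in the controls and 65.3, 52.3, 62.0, 59.5 and 67.5 CPM in the knockouts. The lowest control, control 4, was still above every knockout, and control 5, whose Cre status is in doubt, was the highest of all. The log2 fold change was -1.40 (SE 0.17, edgeR adjusted p = 5.36e-05). Col1a2, the α2 chain, was at 573, 648, 711, 525 and 751 CPM in the controls and 314, 299, 332, 355 and 327 CPM in the knockouts, a log2 fold change of -0.98 (SE 0.09, edgeR adjusted p = 7.77e-06). Col3a1 (chromosome 1, 45311538 to 45349706), the collagen that accompanies type I in soft tissue, was at 483, 560.1, 519, 493 and 699 CPM in the controls and 175, 175.5, 249, 268 and 258 CPM in the knockouts. Both genes had no overlap between the groups, and knockouts 1 and 2, of litter A, were the lowest for Col3a1. Its log2 fold change was -1.29 (SE 0.14, edgeR adjusted p = 2.97e-05). Of 7 markers of tendon and loose connective tissue, 6 were tested. Of these, 5 fell, 0 rose and 1 did not pass (all genes tested: 17.1% lower, 18.1% higher). In the 5 that fell every knockout was below every control (12.4% of all genes tested). The summed level of the 7 markers lay between 172 and 262 CPM over the controls and between 41.8 and 67.4 CPM over the knockouts. None of the 7 was at 0 in any library. Their part in the fall of the soft tissue collagens was not tested.

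Type V collagen starts type I fibrils. Col5a1 was at 154.9 ± 21.6 CPM in the controls and 143.9 ± 13.5 CPM in the knockouts (SD, n = 5 each), and the groups overlapped (log2 fold change -0.11, SE 0.09, edgeR adjusted p = 0.412). Col5a2 was at 133, 139, 159.5, 132 and 127 CPM in the controls and 90.2, 91.0, 154, 103 and 108 CPM in the knockouts. Only knockout 3 lay inside the control range, and the gene did not pass (log2 fold change -0.34, edgeR adjusted p = 0.0625). With the replicate number or the litter as a block it passed (-0.36, edgeR adjusted p = 0.0105 and 0.00574). Without knockout 3 it passed too (-0.49, adjusted p = 0.000809). Col5a2 also passed as lower in DESeq2, with limma on the second deposited table and without the libraries with high Xist. Col5a3, a minor chain of the type, held 6 to 31 counts per library. Its fall (-0.78, edgeR adjusted p = 0.0495) was lost with either block (-0.81, adjusted p = 0.0755 and 0.0621) and without any single library other than knockout 2, with log2 fold changes from -0.86 to -0.66. It was also lost in DESeq2 (-0.79, adjusted p = 0.0837), with library size scaling (-0.72, 0.0717), with no filter (-0.79, 0.0957), with only the controls labelled CreWT (-0.79, 0.124) and without the libraries with high Xist (-0.74, 0.103).

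**Figure D3:**
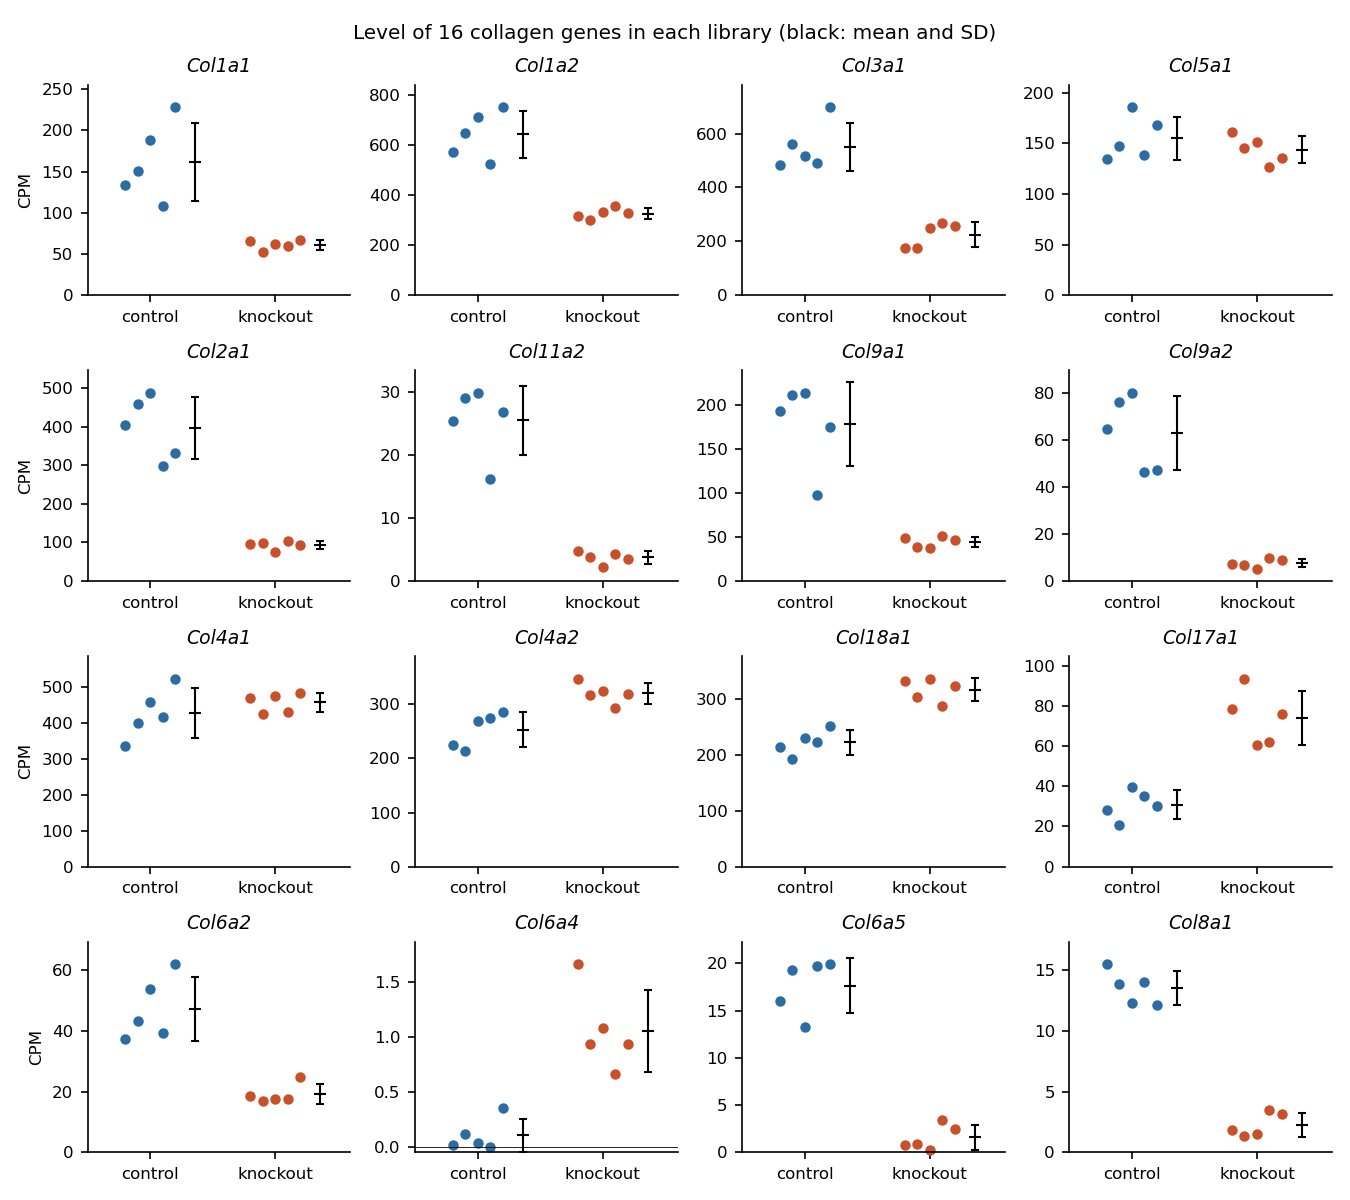
CPM (vertical axis of each panel) of 16 collagen genes in each control (blue) and knockout (orange) library, with mean and SD in black. In the panels of Col1a1, Col1a2, Col3a1, Col2a1, Col11a2, Col9a1, Col9a2, Col6a2, Col6a5 and Col8a1 all knockout points lie below all control points, and in those of Col4a2, Col18a1, Col17a1 and Col6a4 they lie above.

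Among the fibrillar collagens of cartilage, Col2a1, Col11a1 and Col11a2 fell and Col27a1 did not pass. Col2a1 (chromosome 15, 97975602 to 98004695), the main collagen of cartilage, was at 404, 458, 488, 299 and 333 CPM in the controls and 95.7, 97.2, 75.6, 105 and 93.9 CPM in the knockouts. The knockout values lay close together, while controls 4 and 5 stood below the other controls. The log2 fold change was -2.09 (SE 0.13, edgeR adjusted p = 3.95e-07). Type XI collagen forms the core of the cartilage fibril from Col11a1, Col11a2 and a chain of the Col2a1 gene. Col11a2 (chromosome 17, 34039437 to 34066685) was at 25.4, 29.0, 29.8, 16.2 and 26.8 CPM in the controls and 4.81, 3.84, 2.23, 4.24 and 3.503 CPM in the knockouts, a log2 fold change of -2.76 (SE 0.20, edgeR adjusted p = 1.19e-06). Col11a1 was at 97.3 ± 12.6 and 55.5 ± 3.53 CPM (SD, n = 5 each) and fell by 0.81 on the log2 scale (SE 0.08). The groups did not overlap in either gene. Col27a1, a fibrillar collagen of growing cartilage, had 78.5 ± 5.83 and 80.2 ± 3.34 CPM, a difference that did not pass (log2 fold change 0.03, SE 0.05, edgeR adjusted p = 0.714). Col24a1, known from developing bone, had 4.24 ± 1.40 and 6.56 ± 3.21 CPM and did not pass either (0.62, SE 0.32, adjusted p = 0.154). Of 8 early cartilage markers, 7 were tested. Of these, 5 fell, 0 rose and 2 did not pass (all genes tested: 17.1% lower, 18.1% higher). Their summed level was 184.8 to 328 CPM in the controls, lowest in control 4, and 70.2 to 89.9 CPM in the knockouts. Their part in the fall of the cartilage collagens was not tested.

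The FACIT genes of type IX, which coats type II fibrils, fell together. Col9a1 (chromosome 1, 24177610 to 24252684) was at 193, 212, 214, 98.2 and 175 CPM in the controls and 48.3, 38.4, 37.1, 50.8 and 46.1 CPM in the knockouts (log2 fold change -2.01, SE 0.19, edgeR adjusted p = 6.81e-06). Col9a2 (chromosome 4, 121039385 to 121055322) was at 64.4, 76.2, 80.0, 46.2 and 47.3 CPM in the controls and 7.38, 6.91, 4.95, 9.695 and 8.92 CPM in the knockouts (-3.05, SE 0.20, adjusted p = 5.46e-07). Col9a3 (chromosome 2, 180597790 to 180622189) was at 47.3, 47.6, 50.9, 30.9 and 31.6 CPM in the controls and 6.78, 7.20, 3.02, 3.94 and 4.57 CPM in the knockouts (-3.02, SE 0.24, adjusted p = 2e-06). Control 4 was the lowest control of all 3 genes and was still above every knockout. Of the exon bases of Col9a3, 6.07% lie within Tcfl5 on the other strand, and the sources used here do not say whether strand was used in counting.

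The other FACIT genes were mixed. Col12a1 and Col14a1 fell, in the same libraries in which the tendon and loose connective tissue markers given above were lower in sum, and the part of those markers was not tested. Col12a1, which binds type I fibrils in tendon and perichondrium, was at 86.1 ± 16.6 CPM in the controls and 34.3 ± 10.6 CPM in the knockouts and fell by 1.33 on the log2 scale (SE 0.20, edgeR adjusted p = 0.00034). Col14a1, of the same tissues, fell by 1.72 (SE 0.49, adjusted p = 0.0156) with overlapping groups, between 2.15 and 8.99 CPM in the controls and between 0.382 and 2.26 CPM in the knockouts. Its call was lost without litter A (-1.32, adjusted p = 0.083) and with controls labelled as without Cre only (-1.47, adjusted p = 0.0544). Col22a1, a collagen of tissue junctions, rose from 4.703 ± 1.88 to 8.93 ± 1.253 CPM (0.92, SE 0.23, adjusted p = 0.00778). Control 4, at 7.66 CPM, was above its litter mate knockout 4, at 6.93 CPM, and without litter A the call was lost (0.56, adjusted p = 0.132). Col16a1 (-0.24), Col19a1 (-0.07) and Col20a1 (-0.78) did not pass (edgeR adjusted p = 0.0943, 0.806 and 0.217). Without control 4, Col16a1 passed (-0.29, adjusted p = 0.0498).

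In the basement membrane class no gene changed by 2-fold. Col4a1 and Col4a2 code for the chains of the type IV network found in nearly all basement membranes. Col4a1 (chromosome 8, 11198423 to 11312826) was at 338, 400, 459, 416 and 524 CPM in the controls and 470.5, 426, 476, 432 and 483 CPM in the knockouts, and did not pass (log2 fold change 0.10, SE 0.10, edgeR adjusted p = 0.474). Col4a2 was at 225, 213, 269.5, 274 and 285 CPM in the controls and 348, 317, 325, 292 and 319 CPM in the knockouts. The groups did not overlap, and the gene rose (0.34, SE 0.08, adjusted p = 0.00649), but not without litter A (0.17, adjusted p = 0.0819). Col18a1 (chromosome 10, 77052178 to 77166548), which links basement membranes to the tissue beneath and yields endostatin, was at 213, 193, 229.5, 222 and 252 CPM in the controls and 332, 303, 336, 288 and 322 CPM in the knockouts (0.51, SE 0.07, adjusted p = 0.00014). Col15a1, its relative, had 46.5 ± 7.55 and 41.9 ± 4.58 CPM, which did not pass (-0.15, SE 0.11, adjusted p = 0.316).

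Col4a5 and Col4a6 lie head to head on the X chromosome and moved in opposite directions. Col4a5 was at 25.7 ± 2.23 CPM in the controls and 20.9 ± 2.66 CPM in the knockouts (-0.30, SE 0.09, edgeR adjusted p = 0.0243), and Col4a6 at 3.68 ± 0.706 and 5.09 ± 0.473 CPM (0.47, SE 0.14, adjusted p = 0.0186), each with overlapping groups. The Col4a5 call was lost without control 3, control 5, knockout 3 or knockout 4 (-0.28, -0.25, -0.26 and -0.25, adjusted p from 0.0504 to 0.0592) and when scaled by library size only (-0.24, adjusted p = 0.0599). It was also lost without litter A (-0.35, adjusted p = 0.118), with only the controls labelled CreWT (-0.26, adjusted p = 0.0921) and without the libraries with high Xist (-0.28, adjusted p = 0.0675). The Col4a6 call was lost without litter A (0.41, adjusted p = 0.206) and without the libraries with high Xist (0.49, adjusted p = 0.0524). Col4a3 and Col4a4, chains of mature kidney and lung, held 10 to 27 counts per library and did not pass (-0.11 and 0.21, edgeR adjusted p = 0.805 and 0.665).

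Markers of 2 tissues that rest on basement membranes were higher in sum in the same libraries. Of 8 limb ectoderm markers, 5 rose, 0 fell and 3 keratin genes (Krt8, Krt14 and Krt18) did not pass, with a summed level of 303 to 488 CPM in the controls and 529.6 to 630.4 CPM in the knockouts. Of 8 endothelial markers, 7 rose, 0 fell and 1 did not pass, with 242 to 285 CPM in the controls and 302 to 353 CPM in the knockouts. Of all genes tested, 18.1% rose and 17.1% fell. None of these markers was at 0 in any library. Their part in the levels of the basement membrane genes was not tested.

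Genes of other parts of the basement membrane were counted beside them. Of 15 laminin, nidogen, perlecan, agrin and peroxidasin genes, 8 rose, 3 fell and 4 did not pass, where 18.1% of all genes tested rose and 17.1% fell. The laminin chain genes Lama1 (17.8 ± 2.94 CPM in the controls and 30.8 ± 2.02 CPM in the knockouts), Lama5 (89.2 ± 12.4 and 160.2 ± 26.2 CPM), Lamb1 (197 ± 23.8 and 284 ± 19.0 CPM) and Lamc1 (154.5 ± 11.7 and 204 ± 9.18 CPM) rose, with log2 fold changes of 0.79, 0.84, 0.53 and 0.40. Lamb2, a laminin chain of muscle and nerve, fell by 1.01 (SE 0.17), and Pxdn, the peroxidase that crosslinks type IV collagen, fell by 0.40 (SE 0.05).

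Type VI collagen forms beaded filaments around connective tissue cells from Col6a1, Col6a2 and a further chain. Col6a1 was at 31.1 ± 6.75 CPM in the controls and 14.9 ± 2.45 CPM in the knockouts (log2 fold change -1.06, SE 0.15), Col6a2 at 47.2 ± 10.5 and 19.1 ± 3.30 CPM (-1.30, SE 0.15), and Col6a3, the usual further chain, at 58.9 ± 9.57 and 34.6 ± 2.31 CPM (-0.76, SE 0.10). All 3 fell with no overlap between groups (edgeR adjusted p = 0.000174, 4.37e-05 and 0.000105). The genes of the alternative further chains, Col6a4, Col6a5 and Col6a6, lie side by side on chromosome 9 and did not move together. Col6a5 (105856078 to 105960643) was at 15.97, 19.3, 13.3, 19.7 and 19.9 CPM in the controls and 0.798, 0.916, 0.241, 3.48 and 2.50 CPM in the knockouts, 10.9-fold lower (-3.45, SE 0.46, edgeR adjusted p = 0.00012). Knockout 3 held 8 counts and knockout 4 held 151, so the knockouts differed widely among themselves, and all were below every control.

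Col6a4 (105989454 to 106096783), 28.8 kb from Col6a5 on the same strand, was at 0.022, 0.116, 0.041, 0 and 0.360 CPM in the controls and 1.67, 0.935, 1.09, 0.668 and 0.938 CPM in the knockouts. Over all controls there were 24 counts, 16 of them in control 5, and over all knockouts 226. The gene rose (log2 fold change 3.29, SE 0.62, edgeR adjusted p = 0.00145). Without control 5 the value was 4.52, and without litter A it did not pass (2.76, adjusted p = 0.0545). It met the count rule through the knockouts, since 4 of the 5 controls were under 10 counts. Col6a6 was high in both libraries of litter D, reaching 3.71 CPM (control 5) and 2.36 CPM (knockout 5), while the other libraries lay between 0.121 and 0.743 CPM. It did not pass (-0.76, SE 0.91, edgeR adjusted p = 0.568). Without knockout 5 it passed as lower (-2.42, adjusted p = 0.0458), and without control 5 its direction turned (0.53, adjusted p = 0.672).

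The network-forming collagens of type VIII, known from corneal and vascular matrix, fell. Col8a1 (chromosome 16, 57624258 to 57754737) was at 15.5, 13.8, 12.3, 14.1 and 12.1 CPM in the controls and 1.84, 1.36, 1.54, 3.45 and 3.17 CPM in the knockouts (log2 fold change -2.57, SE 0.24, edgeR adjusted p = 7.52e-06). Col8a2 was at 5.13, 6.04, 6.56, 4.72 and 9.04 CPM in the controls and 1.15, 0.859, 3.29, 1.08 and 1.19 CPM in the knockouts (-2.08, SE 0.34, adjusted p = 0.00052). Knockout 3 stood above the other knockouts for Col8a2, and no knockout reached a control in either gene. Col10a1, the collagen of hypertrophic cartilage, held 17 counts over the controls and 63 over the knockouts. It met the count rule in exactly 5 libraries, control 3 and all knockouts but knockout 3. Its rise (1.93, SE 0.64, adjusted p = 0.0342) was lost without any single library other than control 3, with log2 fold changes from 1.61 to 2.01, and was 3.01 without control 3. It was also lost without litter A (1.55, adjusted p = 0.201), with only the controls labelled CreWT (1.62, 0.121), without the libraries with high Xist (1.68, 0.0772), with no filter (1.93, 0.0526) and with somite stage as a term (1.91, 0.0504).

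The collagens of the junction between epidermis and dermis rose. Col17a1 (chromosome 19, 47646344 to 47692094), a membrane protein of the hemidesmosomes of basal keratinocytes, was at 28.3, 20.9, 39.4, 35.3 and 30.3 CPM in the controls and 78.3, 93.6, 60.7, 61.8 and 76.0 CPM in the knockouts (log2 fold change 1.27, SE 0.16, edgeR adjusted p = 9.23e-05). The groups did not overlap, and 5 of the 8 ectoderm markers given above rose in the same libraries, while Krt14, a keratin of basal keratinocytes, did not pass (0.11, edgeR adjusted p = 0.634). Their part in this rise was not tested. Col7a1, of the anchoring fibrils under the same epithelium, was at 18.3, 22.9, 20.8, 26.4 and 26.1 CPM in the controls and 53.5, 22.1, 32.3, 36.3 and 30.2 CPM in the knockouts (0.61, SE 0.19, adjusted p = 0.029). Knockout 2 lay within the control range. The Col7a1 call was lost with the replicate number or the litter as a block (0.56 and 0.61, adjusted p = 0.0637 and 0.0557) and without control 1, 2 or 3 or knockout 1 or 4 (0.53, 0.61, 0.57, 0.40 and 0.59). It was also lost with only the controls labelled CreWT (0.58, adjusted p = 0.099) and without the libraries with high Xist (0.56, adjusted p = 0.0891).

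Among the other collagens that span the cell membrane, Col13a1 rose and Col23a1 and Col25a1 fell. Col13a1, known from neuromuscular junctions and focal adhesions, was at 3.15, 3.09, 3.39, 3.59 and 4.57 CPM in the controls and 6.23, 8.53, 9.68, 8.24 and 11.3 CPM in the knockouts, with no overlap (1.31, SE 0.16, edgeR adjusted p = 7.59e-05). Col25a1, which in mouse is needed for motor axons to enter muscle, was at 45.2 ± 4.54 and 26.9 ± 6.65 CPM (-0.75, SE 0.15, adjusted p = 0.0025). Of 5 muscle precursor markers, 3 rose, 0 fell and 2 did not pass (all genes tested: 17.1% lower, 18.1% higher). The summed level of the 5 was 51.9 to 68.3 CPM in the controls and 45.7 to 106.8 CPM in the knockouts, lowest in knockout 1. Their part in the levels of Col13a1 and Col25a1 was not tested. Col23a1 was at 78.1 ± 15.8 and 50.8 ± 10.6 CPM (-0.62, SE 0.15, adjusted p = 0.00631) with overlapping groups, and did not pass without litter A (-0.56, adjusted p = 0.105). The secreted Col26a1 was at 159.4 ± 20.7 and 105.8 ± 14.4 CPM and fell without overlap (-0.59, SE 0.10, adjusted p = 0.000833).

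Col28a1, known from sheaths of peripheral nerve, followed single libraries rather than groups. It was at 0.854, 6.06, 0.592, 1.00 and 12.5 CPM in the controls and 0.399, 5.61, 0.362, 1.01 and 0.626 CPM in the knockouts, high in the controls 2 and 5 and knockout 2. It did not pass (log2 fold change -1.35, SE 0.94, edgeR adjusted p = 0.303), and without knockout 2 it passed (-2.78, adjusted p = 0.0384). Sox10, a Schwann precursor marker, fell from 3.397 ± 0.119 to 1.89 ± 0.563 CPM (-0.84, edgeR adjusted p = 0.00599). Of 5 such markers it alone fell, 0 rose and 4 did not pass (all genes tested: 17.1% lower, 18.1% higher). Their summed level, of which Erbb3 was the largest part, was 48.7 to 56.5 CPM in the controls and 48.6 to 54.8 CPM in the knockouts, and it was 51.2, 49.2 and 54.6 CPM in the 3 libraries with high Col28a1.

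The balance between chains that share a trimer was compared as the log2 ratio of their counts within a library, which does not depend on the scaling of libraries. Of 13 pairs, 9 differed between the groups by an exact two-sided permutation test with Benjamini-Hochberg adjustment over the pairs. Pairs of other genes were not compared, so this count has no background share beside it. As single genes, 70.5% of the collagens and 35.2% of all genes tested were called by edgeR. In type XI, Col11a1 over Col11a2 was at 1.96 ± 0.265 in the controls and 3.94 ± 0.484 in the knockouts (SD, n = 5 each), a difference of 1.98 (exact permutation p = 0.00794, adjusted p = 0.0206), higher in 5 of 5 knockouts than in any control. Col2a1 over Col11a1 went from 2.01 ± 0.162 to 0.74 ± 0.227, a difference of -1.27 with the same p. Col2a1 is also the main collagen of cartilage, so this ratio does not give the balance within type XI alone. In type IX, Col9a1 over Col9a2 went from 1.49 ± 0.289 to 2.57 ± 0.233 (exact permutation p = 0.00794, adjusted p = 0.0206) and Col9a1 over Col9a3 from 2.08 ± 0.287 to 3.18 ± 0.544 (exact permutation p = 0.0159, adjusted p = 0.0258). These pairs share Col9a1. Col9a2 over Col9a3 was at 0.59 ± 0.0899 in the controls and 0.61 ± 0.57 in the knockouts, a difference of 0.02 (exact permutation p = 0.937), with a knockout spread from -0.06 to 1.30.

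Smaller shifts were found in other types. Col1a1 over Col1a2 went from -2.02 ± 0.212 to -2.41 ± 0.139 (exact permutation p = 0.0159, adjusted p = 0.0258). Col4a5 over Col4a6 went from 2.82 ± 0.24 to 2.03 ± 0.0805 and Col6a1 over Col6a2 from -0.60 ± 0.0573 to -0.36 ± 0.044, without overlap (exact permutation p = 0.00794 and adjusted p = 0.0206 for each). Col4a1 over Col4a2 changed by -0.23 and Col6a1 over Col6a3 by -0.30 (exact permutation p = 0.0159 and 0.0238, adjusted p = 0.0258 and 0.0344). Col5a1 over Col5a2, Col4a3 over Col4a4 and Col8a1 over Col8a2 did not pass (exact permutation adjusted p = 0.238, 0.662 and 0.572). The smallest p that 5 against 5 can give is 0.00794. Without litter A, without the libraries with high Xist, or as same-numbered pairs, 0 of 13 passed, where the smallest possible exact p was 0.1, 0.0286 and 0.0625. After adjustment over the pairs, 0.0286 could pass only if most pairs reached it, and 0.1 and 0.0625 could not pass. Leaving out single libraries left 7 to 9 pairs. With only the 3 controls labelled CreWT, 6 pairs passed, and Col1a1 over Col1a2 (-0.31), Col9a1 over Col9a3 (1.21) and Col6a1 over Col6a3 (-0.26) did not (exact permutation adjusted p = 0.0871, 0.0663 and 0.155). Col1a1 over Col1a2 did not pass without control 5 (-0.31, exact permutation adjusted p = 0.0515). Col4a1 over Col4a2 did not pass without knockout 1, 2, 3 or 4 (-0.21, -0.21, -0.24 and -0.25). Col6a1 over Col6a3 did not pass without control 1, 3 or 5 or knockout 1, 2, 3 or 4, with differences from -0.32 to -0.24.

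**Figure D4:**
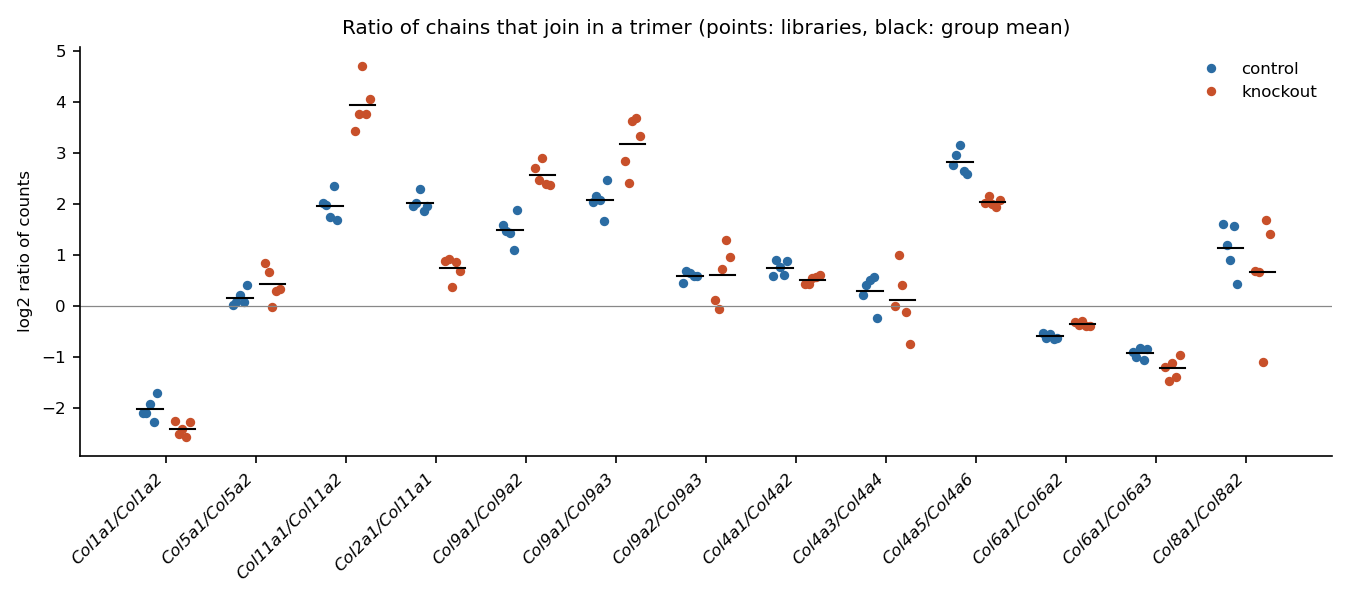
Log2 ratio of the counts of paired chains (vertical axis) in each control (blue) and knockout (orange) library, with group means in black. The Col11a1/Col11a2 points move from between 1.69 and 2.36 in the controls to between 3.43 and 4.71 in the knockouts, and the Col9a2/Col9a3 means stay at 0.59 and 0.61.

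Several collagen genes are neighbours. Col4a1 and Col4a2 overlap head to head by 22 exon bases, with log2 fold changes of 0.10 and 0.34. Col4a4 and Col4a3 are 71 bases apart (0.21 and -0.11), and Col4a6 and Col4a5 are 1308 bases apart (0.47 and -0.30). Col9a1 and Col19a1 lie tail to tail, 9.2 kb apart, with -2.01 and -0.07, and Col3a1 and Col5a2 lie tail to tail, 24.6 kb apart, with -1.29 and -0.34. Col6a2 and Col6a1, 85.2 kb apart on the same strand, had -1.30 and -1.06, and Col18a1, 326 kb beyond Col6a1, had 0.51.

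Directions within litters were counted for the collagens only, not for all genes. All 22 collagens that fell were lower in the knockout in all 4 litters, which the calls on the same libraries in part ensure. For the 18 without overlap between the groups it could not have been otherwise. In 15 of the 22 the fall was smallest in litter C, and in 11 it was largest in litter B. For Col2a1 the log2 difference of CPM was -2.16 in litter A, -2.69 in B, -1.52 in C and -1.83 in D, and for Col6a5 it was -4.36, -5.79, -2.50 and -2.99. Of the 7 genes that rose and had counts in every library, 6 were higher in all 4 litters. Col22a1 was the exception, at -0.14 in litter C.

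**Figure D5:**
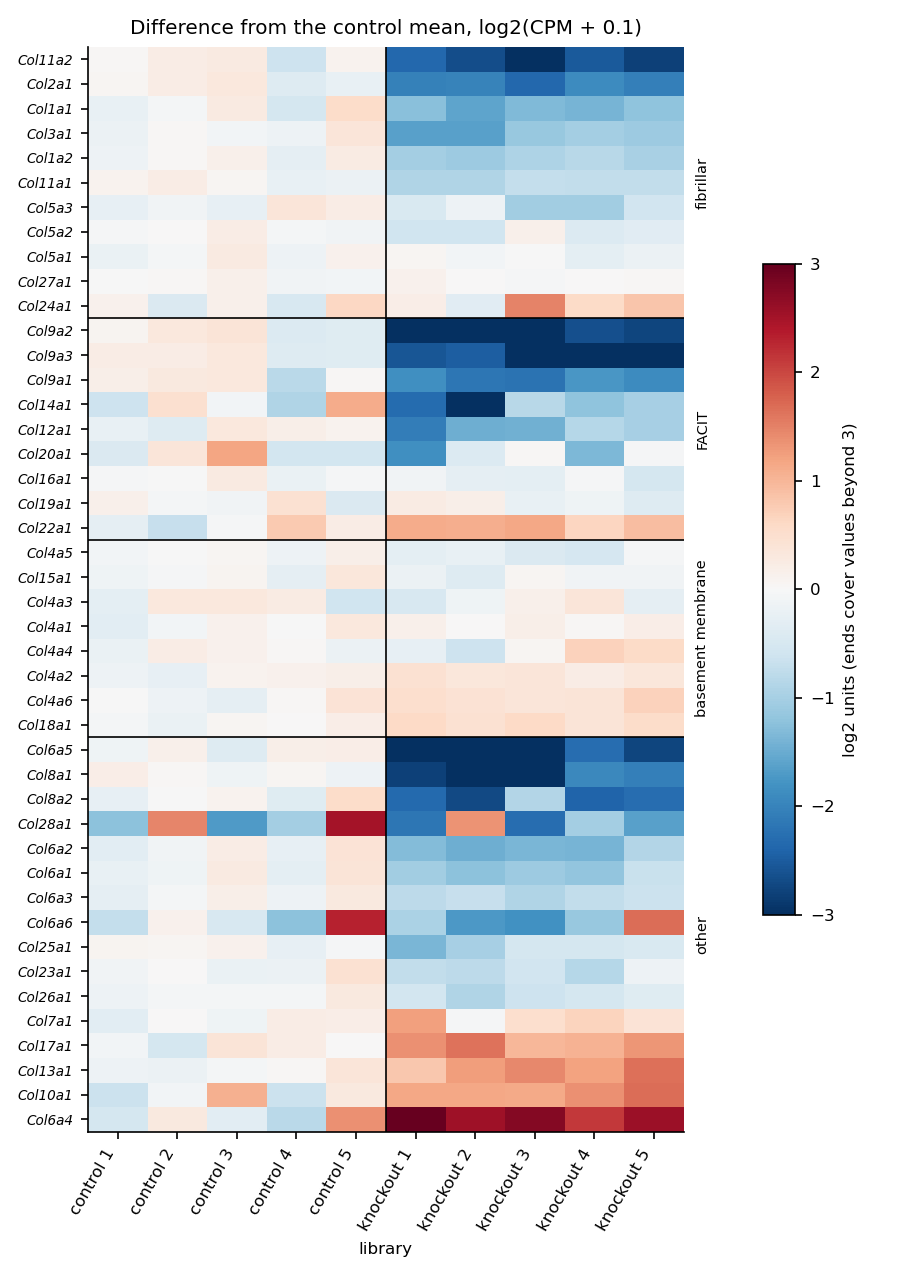
Difference of each library from the control mean on the log2(CPM + 0.1) scale for the 44 collagen genes (by class), blue for lower and red for higher. The type II, IX and XI genes, Col6a5, Col8a1 and Col8a2 are blue in all 5 knockouts, while Col28a1 and Col6a6 vary between libraries of both groups.

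The counts of genes that build, bind or degrade collagen stand against 17.1% of all genes tested that fell and 18.1% that rose. Of 22 genes of intracellular modification and folding, 10 fell, 3 rose and 9 did not pass, with a median log2 fold change of -0.14. Serpinh1, which codes for the collagen chaperone HSP47, was at 779 ± 38.1 CPM in the controls and 603 ± 15.7 CPM in the knockouts (-0.37, SE 0.04, edgeR adjusted p = 5.28e-05). Creb3l2, a transcription factor that in mouse supports secretion by cartilage cells, fell from 113 ± 17.9 to 62.9 ± 4.64 CPM (-0.85, SE 0.10), and Fkbp14, a folding enzyme, from 20.6 ± 3.39 to 10.03 ± 2.27 CPM (-1.03, SE 0.15). The prolyl 3-hydroxylases P3h1 and P3h3 fell by 0.43 and by 0.61, and the glycosyltransferase Colgalt2 fell by 0.72.

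Of 13 genes of processing and crosslinking outside the cell, 12 were tested, of which 8 fell, 2 rose and 2 did not pass, beside the same shares of all genes. The lysyl oxidases, which crosslink fibrils, were lower, with Loxl1 at 20.4 ± 3.93 CPM in the controls and 5.35 ± 1.05 CPM in the knockouts (-1.93, SE 0.16), Lox at 13.1 ± 1.55 and 6.31 ± 1.04 CPM (-1.05, SE 0.13), Loxl2 at -0.54 and Loxl3 at -0.81, while Loxl4, at 0.365 CPM in the controls and 0.849 CPM in the knockouts, rose by 1.22. Loxl3 did not pass without litter A (-0.65, edgeR adjusted p = 0.079). Bmp1, the protease that removes the C-propeptides, fell by 0.30 (SE 0.06). Pcolce, which enhances that cleavage, rose from 73.3 ± 3.996 to 102.5 ± 6.29 CPM (0.48, SE 0.05, edgeR adjusted p = 2.78e-05).

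Of 8 receptors for collagen, 3 fell, 2 rose and 3 did not pass (all genes tested: 17.1% lower, 18.1% higher). Ddr2, the receptor tyrosine kinase that binds fibrillar collagen on mesenchymal cells, was at 228 ± 23.4 CPM in the controls and 124 ± 8.34 CPM in the knockouts (-0.88, SE 0.07, edgeR adjusted p = 2.69e-06), and Itga11, an integrin chain for type I collagen, fell by 0.90 (SE 0.16). The endocytic receptor Mrc2 fell by 0.29 (SE 0.07). Ddr1 (0.34) and Itga2 (0.43), known from epithelia, rose, though neither passed without litter A (0.18 and 0.27, edgeR adjusted p = 0.131 and 0.321), and Itga2 did not pass without the libraries with high Xist (0.42, adjusted p = 0.0584).

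Of 11 genes of collagen breakdown, 9 were tested, of which 4 fell, 3 rose and 2 did not pass (35.2% of all genes tested were called, 17.1% as lower and 18.1% as higher). Mmp14, a membrane-bound protease that cleaves fibrillar collagen, was at 130.4 ± 10.4 CPM in the controls and 59.1 ± 1.34 CPM in the knockouts (-1.14, SE 0.05, edgeR adjusted p = 3.05e-08), and its relative Mmp16 fell by 0.74 (SE 0.11). Mmp2, which MMP14 activates, rose from 238 ± 26.0 to 366 ± 24.1 CPM (0.62, SE 0.07), and the inhibitor Timp2, which takes part in that activation, fell by 0.28 (SE 0.07). The inhibitor Timp1 rose from 3.89 ± 0.292 to 8.17 ± 0.434 CPM (1.07, SE 0.09) and the cathepsin gene Ctsk from 3.67 ± 0.412 to 9.25 ± 1.19 CPM (1.33, SE 0.12). Blood cell markers were higher in the same libraries. All 8 macrophage markers rose, with a summed level of 50.9 to 63.1 CPM over the controls and 189 to 227 CPM over the knockouts, and all 7 erythroid markers rose, with 2883 to 3412 and 3605 to 7562 CPM. None of these markers was at 0 in any library, and their part in the rises of Timp1, Ctsk and Mmp2 was not tested.

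Promoter sequences in RefSeq were found for 35 of the 44 collagens, with 38 starts. Col1a1 and Col2a1 were not among these genes. The windows counted here keep bases that GENCODE places inside the gene. Those of Col1a2, Col25a1 and Col27a1 lie wholly inside it, as do those of the more downstream starts of Col9a1 and Col18a1. In the 250 bases before a start the collagens had a median of 9.5 CG and an observed over expected CpG ratio of 0.438, against 14 CG and 0.667 for the promoters of all genes tested. The 18 starts of collagens that fell had a median of 9.5 CG, the 9 of those that rose 5, and the 11 of those that did not pass 10. For all genes that fell, rose or did not pass, the medians were 15, 13 and 14 CG. The GC box GGGCGG, which itself holds a CG, was present on either strand in 13 of the 18 starts of collagens that fell. It was present in 5 of 9 that rose and in 4 of 11 that did not pass. For all genes that fell, rose or did not pass the shares were 56.9%, 52.2% and 52.0%, and for all genes tested 53.0%. The 18 starts hold 2 overlapping windows of Col6a2, both with the box. TATAAA was present in 5 of the 38 collagen starts (7.08% of promoters of genes tested), among them Col3a1 and Col17a1, and CCAAT in 13 (34.4%). ACAATG, a core to which SOX proteins can bind, was present in 1 of the 38, that of Col28a1 (6.76%). These counts describe letters in a window and were not tested.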

How the data were processed

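Estimated counts per Ensembl gene were deposited by the authors for 10 libraries. The submitters' processing notes name the build mm10 and the tools DESeq2 1.16.1, R 3.4.1 and Salmon 0.8.2, without their roles. Only 0.06% of the nonzero values deposited were whole (tolerance 1e-06), so they were rounded. A second deposited table, a signal named as FPKM, equals those rounded counts over a single factor for each library (100% of values within 0.01). It served as an alternative on the log2(value + 1) scale. Of 47729 genes, 47224 had a symbol in GENCODE M21 (GRCm38, the assembly of mm10).

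In edgeR 4.0.16 (R 4.3.3), filterByExpr (minimum count 10, total 15) and TMM scaling preceded the quasi-likelihood test, knockout against control, with Benjamini-Hochberg adjustment over 20562 genes. The SE is the absolute log2 fold change over the square root of F. DESeq2 1.42.0 and limma 3.58.1 were alternatives. CPM are TMM-scaled, and levels per kb use the union of exons. A count of 0 allows up to 0.0601 to 0.0902 CPM, at 3 counts, for counting error only. The biological coefficient of variation was 16.4%. Within a group, chi-square over its degrees of freedom was at least 17.69 for any pair of libraries, so none was a duplicate. Libraries are labelled by litter and number, and where they are not separate embryos the p-values measure only the spread between these samples.

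Same-numbered libraries share a litter, per the labels. Correlations of their deviations from the group means were -0.01, 0.16, -0.02, 0.04 and 0.20 for numbers 1 to 5. Fits with number or litter as a block were alternatives. The test was also run on simulated counts with few changed genes and no litters. The data here differ in both, so that run does not bear on the calls. The text names every collagen gene, Cxxc1 and, of each pathway list, up to 6 genes with the smallest adjusted p below 0.05. Loxl4, Tcfl5, Xist and single marker genes are outside this rule and were chosen after values were seen. The members, classes and lists were chosen with earlier results of these data known.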

Additional observations from a re-analysis of the deposited data

Results flagged for a closer look

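Of 184 groups of 5 libraries examined, 15 held a library far from the other 4 (a gap above 0.71 of the range), where chance gives about 1 in 20. Among the collagens, knockout 3 was high for Col5a2 (154.2 CPM, others 90.2 to 108) and Col8a2 (3.29 CPM, others 0.859 to 1.19). Knockout 5 was high for Col6a2 (24.9 CPM, others 16.8 to 18.6) and Col6a6 (2.36 CPM, others 0.121 to 0.299). Its litter mate control 5 was high for Col6a6 as well (3.71 CPM, others 0.230 to 0.743), and also for Col23a1 (105.4 CPM, others 66.97 to 78) and Col26a1 (195 CPM, others 142 to 153). Knockout 2 was high for Col28a1 (5.61 CPM, others 0.362 to 1.01).

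Among the pathway genes, knockout 5 was high for Fkbp14 (14.03 CPM, others 8.43 to 9.44) and Loxl2 (67.6 CPM, others 54.1 to 57.1). Knockout 2 was high for Ddr1 (66.8 CPM, others 59.9 to 61.2), knockout 3 for Ctsk (11.4 CPM, others 8.63 to 8.82) and knockout 1 for Pxdn (363 CPM, others 330.4 to 332). Knockout 4 was low for Lama1 (27.2 CPM, others 31.3 to 32.3) and Lamc1 (188 CPM, others 206 to 209.7). Why these libraries differed was not tested.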

How the results depend on the processing

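Of the 31 collagens called, 21 kept their call and direction under all 22 alternatives of the fit (other scaling, DESeq2, limma on the second table, other filters, single libraries left out, blocks, subsets of libraries and somite stage). The count of collagens called ran from 23 to 32. Without litter A, 3 against 3, all genes called were 4023 (2002 higher, 2021 lower), collagens that rose 4, FACIT genes that rose 0, basement membrane genes that rose 1 and other collagens that rose 3. The latter was also 3 when only controls labelled as Cre-free were used and when the high-Xist libraries were left out, and from 3 to 5 without single libraries. Basement membrane genes that fell were 0 under library size only, without litter A, with Cre-free controls and without the high-Xist libraries, and 0 to 1 without single libraries. Without litter A the lists of modification, processing and receptors held 0, 1 and 0 rises and processing held 4 falls, and without the libraries with high Xist receptors held 1 rise. Chain ratios past the threshold were 0 without litter A and 0 as a replicate block by number, where the smallest possible exact p was above the threshold. They were also 0 without the libraries with high Xist. There the smallest possible exact p was below the threshold before adjustment over the pairs. After adjustment it could pass only if most pairs reached it, so this 0 does not show that the ratio shifts were lost. The causes of these changes were not tested. The replicate block by number gave 8 collagens that rose and 22 that fell, and the block by litter the same counts. The block changed the calls of Col5a2, Col5a3 and Col7a1 and no other collagen call.

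Directions turned in values that did not pass in the setting reported first. Without litter A these were Col4a1 (-0.0105), Col4a3 (0.0608) and the ratio Col5a1/Col5a2 (-0.0343). Without the high-Xist libraries they were Col19a1 (0.00166) and the ratios Col9a2/Col9a3 (-0.0407) and Col8a1/Col8a2 (0.0842). With Cre-free controls they were Col27a1 (-0.00176), Col6a6 (0.45) and Col9a2/Col9a3 (-0.0281). Over single libraries left out, the ranges that crossed 0 were -0.00164 to 0.4 for Col4a4, -2.42 to 0.53 for Col6a6, -0.175 to 0.0582 for Col19a1, -0.401 to 0.0372 for Col4a3/Col4a4 and -0.152 to 0.188 for Col9a2/Col9a3. At these depths Col4a3, Col4a4, Col5a3, Col6a4 and Col10a1 rest on few counts.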
